A study of Mus musculus with 2 samples.

Results

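Imprinted genes are expressed from the copy inherited from 1 parent only, and each imprinted domain is governed by a control region that is methylated in the egg or the sperm. The Igf2r-Airn and Trappc9-Peg13 domains are a pair in which that region lies inside the gene next to it. The 7 members were Igf2r, Airn, Slc22a2 and Slc22a3 on chromosome 17, and Trappc9, Peg13 and Kcnk9 on chromosome 15. They were taken by position: all CpG cytosines listed from 5 kb upstream of the start to the end of each gene (GENCODE M21 on GRCm38) were members, which gave 731 of the 1782730 cytosines listed in the series, 261 of them in the Igf2r-Airn domain and 470 in the Trappc9-Peg13 domain. The cells were female mouse embryonic stem cells (mESCs) of the Xmas line, strain C57/Bl6, whose X chromosomes carry GFP and mCherry reporters driven by the Hprt promoter. Cells were kept in 2i/LIF by the modified culture method, for 7 passages by the sample labels (the paper's methods give another number), and FACS on the reporters then separated XX cells from XO cells, which had lost an X chromosome. Apart from that chromosome both groups shared the line, the culture and the library kit. Whether the line came from 1 embryo or from pooled outgrowths is not given in the sources used here.

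Reduced representation bisulfite sequencing (RRBS) gave, for each cytosine, the percentage of reads in which it was methylated. There was 1 XX and 1 XO library, so no difference below has a replicate error and none was tested. Each mean is given with its SD over cytosines, which is the spread along the DNA and not an error between cultures. Read depth is unknown, as only percentages were used. Neighbouring cytosines share reads: in the members, neighbours on the same strand and between the same CCGG sites had exactly the same value in 44.0% of 432 pairs in the XX library and 45.6% in the XO library. Over all listed cytosines these shares were 53.8% and 54.9%. Pairs at 0% or 100% can match without shared reads. Where the second cytosine of a pair lay between 0% and 100%, the members' shares were 28.6% of 315 pairs (XX) and 30.1% of 306 (XO). CCGG is the site of MspI, the enzyme generally used in RRBS, though the sources used here do not name the enzyme. Cytosines on 1 strand between neighbouring CCGG sites are called a group below, and the number of groups is closer than the number of cytosines to the number of independent readings. All differences are XX minus XO in percentage points.

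Igf2r encodes the cation-independent mannose 6-phosphate receptor, which takes up the growth factor IGF2 and carries it to the lysosome. Airn is a long noncoding RNA that starts within Igf2r and is transcribed against it. In most mouse tissues Airn is transcribed from the paternal copy and silences Igf2r on that copy, and in the placenta it also silences the more distant Slc22a2 and Slc22a3, which encode organic cation transporters. The start of Airn carries methylation from the egg, which keeps Airn off on the maternal copy. Peg13, a noncoding RNA within Trappc9, likewise has a start that is methylated on the maternal copy. Trappc9 encodes a subunit of a vesicle-tethering complex, and Kcnk9 encodes a background potassium channel of neurons that is expressed from the maternal copy in brain. A control region that is methylated on the copy from 1 parent alone gives about as many methylated as unmethylated reads.

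Airn started on chromosome 17 at position 12741311 of GRCm38, in intron 2 of Igf2r (12740407 to 12748643) and 28.4 kb from the start of Igf2r on the opposite strand. Peg13 started on chromosome 15 at position 72810324, in intron 16 of Trappc9 (72757359 to 72903556) and 250.9 kb from its start, on the same strand. The stretches that follow are those of at most 300 bases with the most listed CpGs in each control region and in the promoter of the gene around it, on the strand of the named gene and from the GRCm38.p6 sequence of RefSeq. Capitals mark the CpGs with a value, and together they show what the values below were read from. The Airn stretch is chr17:12741521-12741819 (plus strand, from 210 to 508 bp past the start) and the Igf2r stretch is chr17:12769520-12769818 (minus strand, from -154 to 144 bp). Those of Peg13 and Trappc9 are chr15:72809674-72809972 (minus strand, from 352 to 650 bp) and chr15:73060858-73061157 (minus strand, from 47 to 346 bp).
Airn control region: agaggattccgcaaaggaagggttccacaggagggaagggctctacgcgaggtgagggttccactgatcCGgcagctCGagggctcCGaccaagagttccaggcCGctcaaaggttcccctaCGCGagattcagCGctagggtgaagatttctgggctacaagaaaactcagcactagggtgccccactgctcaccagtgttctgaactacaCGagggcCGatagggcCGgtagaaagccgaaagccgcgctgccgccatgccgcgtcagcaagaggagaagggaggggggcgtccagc
Igf2r promoter: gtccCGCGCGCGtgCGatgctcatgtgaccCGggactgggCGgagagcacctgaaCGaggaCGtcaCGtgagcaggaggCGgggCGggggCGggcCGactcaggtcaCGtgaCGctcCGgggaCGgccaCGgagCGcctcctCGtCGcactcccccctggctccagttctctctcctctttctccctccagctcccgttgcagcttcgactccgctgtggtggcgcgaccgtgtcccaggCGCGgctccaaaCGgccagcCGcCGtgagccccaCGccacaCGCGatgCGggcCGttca
Peg13 control region: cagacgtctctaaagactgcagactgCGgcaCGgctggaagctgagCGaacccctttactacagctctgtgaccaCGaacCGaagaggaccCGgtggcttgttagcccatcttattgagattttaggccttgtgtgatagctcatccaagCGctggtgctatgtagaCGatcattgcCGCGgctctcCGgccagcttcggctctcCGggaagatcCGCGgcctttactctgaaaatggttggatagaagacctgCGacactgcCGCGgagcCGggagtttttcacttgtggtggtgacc
Trappc9 promoter: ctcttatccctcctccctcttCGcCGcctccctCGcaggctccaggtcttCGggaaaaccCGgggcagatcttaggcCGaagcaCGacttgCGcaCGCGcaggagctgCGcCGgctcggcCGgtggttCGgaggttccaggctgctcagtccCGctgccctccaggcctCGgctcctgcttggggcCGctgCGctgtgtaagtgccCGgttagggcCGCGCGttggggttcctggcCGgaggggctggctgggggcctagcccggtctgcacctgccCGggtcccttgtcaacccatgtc
In the Airn stretch, 10 cytosines averaged 10.5% ± 7.33 in XX against 45.4% ± 13.7 in XO cells (SD over cytosines), and in the Peg13 stretch 25 cytosines averaged 24.4% ± 9.36 and 43.0% ± 16.9. The promoter stretches averaged 12.9% ± 16.6 in XX against 21.9% ± 22.5 in XO cells over 46 cytosines at Igf2r, and 1.87% ± 2.61 and 0.684% ± 1.19 over 39 cytosines at Trappc9. Within the XO library each was thus below the stretch of its control region. Within the XX library this held for Trappc9, while the Igf2r stretch was slightly above the Airn stretch.

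At the Airn control region, which spanned 1 kb on each side of all annotated starts, methylation was 14.6% ± 10.04 in XX against 39.3% ± 13.4 in XO cells over 19 cytosines in 6 groups, a difference of -24.7 points. XX cells thus had 0.371 times the XO level. The XX values ran from 0% to 32.1% and the XO values from 11.1% to 58.6%, and 16 of 19 cytosines were lower in XX cells. No XX value and 3 XO values were above 50%. All of the listed cytosines lay past the start of Airn, the nearest 279 bp from it, so the stretch upstream of the start was not measured. The most downstream of the annotated starts added no cytosine.

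The level was not even along the region. The group nearest the start held 7 forward-strand cytosines from 279 to 344 bp, with 7.79% in XX against 52.7% in XO cells, and each of the 7 was lower in XX cells. From 925 to 995 bp, 4 cytosines averaged 28.6% in XX against 27.8% in XO cells, with 2 of them lower. From 1065 to 1073 bp on the forward strand, 3 cytosines had 6.90% in XX against 40.0% in XO cells. On the reverse strand the differences were smaller in size, at -8.33 points from 423 to 430 bp, -18.3 points at 439 bp, and -11.9 points (18.6% in XX, 30.5% in XO cells) from 1072 to 1074 bp. The 5 reverse-strand cytosines together differed by -11.8 points and the 14 forward-strand ones by -29.3 points. Counting each of the 6 groups once gave a difference of -19.3 points with a standard error over groups of 6.90 points.

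**Figure D1:**
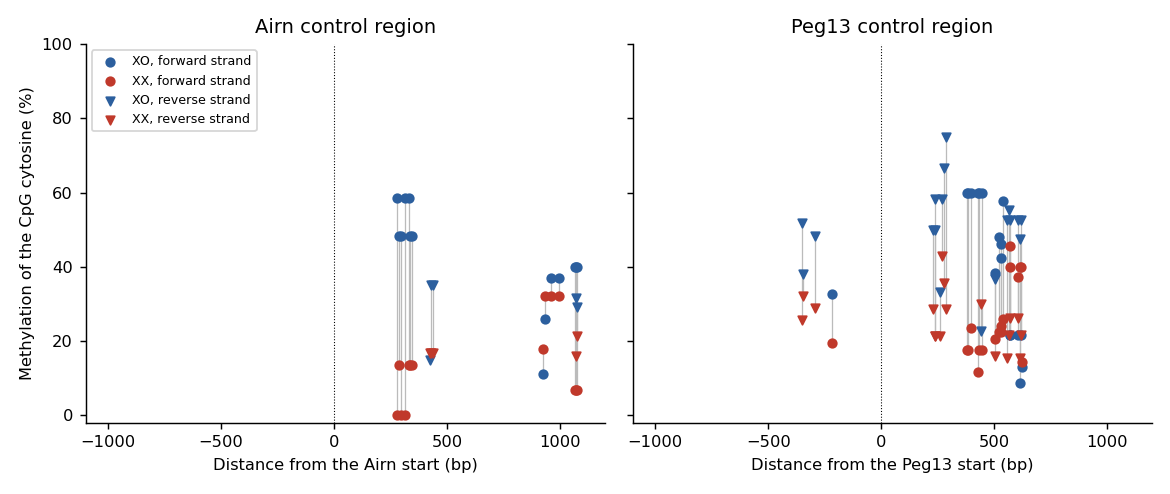
Methylation of each listed CpG cytosine (y axis, percent) against its distance in bp from the Airn start (left) or the Peg13 start (right), along the direction of each gene, with XO in blue, XX in red, circles for the forward and triangles for the reverse strand, and a grey line joining the values of 1 cytosine. At Airn 16 of 19 and at Peg13 29 of 36 cytosines were lower in XX cells, and the forward-strand cytosines furthest into Peg13 went the other way.

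The promoter of Igf2r, 1 kb either side of its start (chr17:12768664-12770664), averaged 10.9% ± 15.4 in XX against 18.4% ± 21.7 in XO cells over 58 cytosines in 10 groups, a difference of -7.47 points. Its median was 0% in XX against 9.38% in XO cells, so most of it had little methylation. The exceptions lay at the start itself. A group of 5 reverse-strand cytosines from -31 to -9 bp averaged 37.8% in XX against 66.2% in XO cells, and 11 forward-strand cytosines from 87 to 154 bp averaged 30.2% and 37.4%. Beside them, 10 forward-strand cytosines from -98 to -36 bp had 0.192% in XX against 6.88% in XO cells, and both groups from -167 to -123 bp had means at or below 0.595% in XX against 3.72% in XO cells. On the reverse strand, 9 cytosines from -114 to -37 bp lay between these, with 9.34% in XX against 22.2% in XO cells, single XO values ranging from 0% to 69.2%. Methylation near the Igf2r start thus differed widely between neighbouring groups and within this one.

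Between the control region and this promoter, the XO level differed by 20.9 points (control region higher) and the XX level by 3.63 points. The XX minus XO difference was larger in size at the control region than at the promoter (control region minus promoter -17.2 points), and this kept its sign in each of the 5 alternatives tried, between -27.5 and -13.8 points. The promoter had only 18.4% in XO cells, which left it less room to fall in points. In relative terms XX cells had 0.594 times the XO level at the promoter and 0.371 times at the control region.

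Past the first kb and without the control region, the body of Igf2r averaged 44.8% ± 25.4 in XX against 64.3% ± 27.1 in XO cells over 44 cytosines in 25 groups, a difference of -19.5 points, with 36 of 44 lower in XX cells. Its parts on either side of the Airn start differed in level. The part from the Igf2r promoter to Airn, which the annotated Airn gene overlaps, averaged 24.4% ± 23.8 in XX against 42.8% ± 26.0 in XO cells over 15 cytosines. Whether Airn was transcribed there in these cells was not measured. The part beyond the Airn start, up to the end of Igf2r, averaged 55.3% ± 19.4 and 75.4% ± 20.4 over 29 cytosines. The XX minus XO differences of these parts, -18.4 and -20.1 points, were closer to each other than their levels were. Averaged over cytosines, exons and introns of the body also had nearly the same difference (-19.4 points over 17 and -19.6 points over 27 cytosines). This likeness did not hold up: counting each group once gave -32.4 points over 7 exon groups and -16.6 points over 18 intron groups.

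Compared with this body, the Airn control region was lower in level in both libraries (control region minus body -30.2 points in XX and -25.0 points in XO cells). The XX minus XO difference of the control region minus that of the body was -5.19 points, but this did not hold up: counting each group once turned it to 1.76 points. In relative terms, the control region had 0.371 times and the body 0.696 times the XO level.

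Along Airn itself, no cytosine was listed from 1110 to 9972 bp past the start. Near 10 kb, 3 forward-strand cytosines averaged 16.97% in XX against 41.1% in XO cells and 2 reverse-strand cytosines 9.09% and 35.0%, levels like those of the control region. Single cytosines further on ranged widely, with 29.2% in XX against 66.0% in XO cells at 10628 bp, 5.45% and 8.16% at 10053 bp, and 92.9% and 90.0% at 10870 bp. Past the Igf2r start, where Airn runs on without overlapping Igf2r, 14 cytosines averaged 55.6% ± 16.9 in XX against 65.2% ± 21.5 in XO cells, a difference of -9.64 points.

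Of the genes that Airn is known to silence at a distance, Slc22a2 had the most methylated promoter of the members in both libraries. At chr17:12583132-12585132, 13 cytosines in 6 groups averaged 43.9% ± 24.9 in XX against 75.6% ± 14.5 in XO cells, a difference of -31.7 points. All 13 lay within 0.5 kb of the start, and over that distance the Airn control region differed by -34.9 points and the Peg13 control region by -27.9 points. The 3 cytosines at the start (-61 to 8 bp) were high in both, with 81.8% in XX against 87.0% in XO cells. Most of the difference came from the 10 cytosines from 235 to 387 bp, where for example 4 forward-strand cytosines averaged 36.4% in XX against 82.2% in XO cells. The Slc22a2 body averaged 36.3% ± 20.7 in XX against 58.9% ± 18.3 in XO cells over 19 cytosines.

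Slc22a3 had a promoter of intermediate level. At chr17:12506704-12508704, 47 cytosines in 12 groups averaged 13.7% ± 15.6 in XX against 26.7% ± 20.2 in XO cells, a difference of -12.9 points, and 41 of 47 were lower in XX cells. Levels differed by strand there: 13 forward-strand cytosines from 270 to 342 bp past the start had 0% in XX against 12.04% in XO cells, and 12 reverse-strand cytosines from 256 to 323 bp averaged 15.1% and 33.6%. A group of 2 forward-strand cytosines at 179 and 186 bp went the other way, with 68.4% in XX against 37.5% in XO cells. The body averaged 38.8% ± 21.4 in XX against 55.4% ± 24.7 in XO cells over 47 cytosines.

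**Figure D2:**
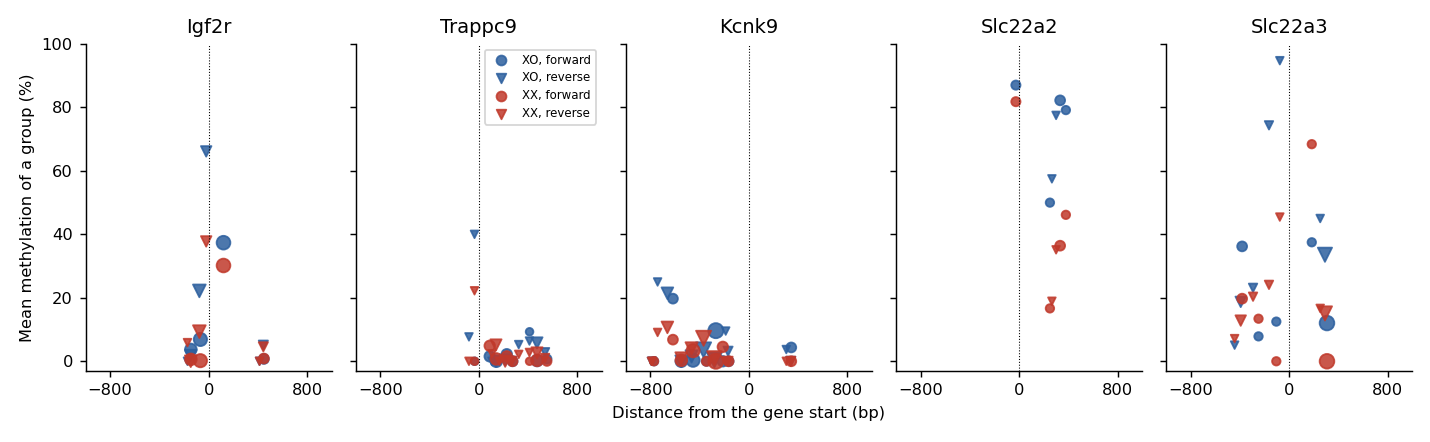
Mean methylation (y axis, percent) of each group of CpG cytosines between neighbouring CCGG sites against its distance in bp from the start of the 5 protein-coding members, with XO in blue, XX in red, circles for forward-strand and triangles for reverse-strand groups, and larger symbols for more cytosines. Most groups of Trappc9 and Kcnk9 lay near 0% in both libraries, Slc22a2 was high, and Igf2r and Slc22a3 held high and low groups side by side.

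At the Peg13 control region (chr15:72809324-72811324), methylation was 25.5% ± 8.78 in XX against 45.5% ± 16.2 in XO cells over 36 cytosines in 11 groups, a difference of -20.0 points. XX values ran from 11.8% to 45.7% and XO values from 8.70% to 75.0%. None of the XX values and 17 of the XO values were above 50%. XX cells had 0.561 times the XO level here. The order of Airn and Peg13 by this ratio was not stable: on the reverse strand Airn had 17.4% in XX against 29.2% in XO cells and Peg13 25.5% against 50.1%, so that XX cells were then relatively lower at Peg13.

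In 10 of the 11 groups the XX mean was below the XO mean, the largest difference being -42.4 points over 6 forward-strand cytosines from 379 to 444 bp past the start, each at 60% in XO cells. Upstream of the start, 4 cytosines in 3 groups had differences from -25.9 to -12.5 points. The exception was a group of 6 forward-strand cytosines from 568 to 624 bp, with 36.2% in XX against 18.1% in XO cells. On the reverse strand the same stretch (567 to 617 bp, 5 cytosines) had 22.2% in XX against 52.1% in XO cells. Of the 7 CpGs of the region with values on both strands, XX minus XO had opposite signs on the strands at 6 (85.7%), against 20.2% of the 426739 such CpGs of the series and 15.03% of the 153 of the members. Of these 6, 5 lie in the pair of groups just described and are not separate observations of it. Averaged over the strands, these 7 CpGs had 28.4% in XX against 36.7% in XO cells, so at the CpGs read on both strands the difference was -8.31 points.

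The promoter of Trappc9 (chr15:73060204-73062204) had almost no methylation in either library, 1.90% ± 3.44 in XX against 2.17% ± 5.44 in XO cells over 62 cytosines in 19 groups. The difference over cytosines was -0.270 points, and its sign turned on the forward strand alone (0.216 points over 33 cytosines). Counting each group once, it was -1.93 points with a standard error of 1.17 points, and 10 of the 19 groups were lower in XX cells. The highest cytosine, on the reverse strand 35 bp upstream of the start, had 22.2% in XX against 40.0% in XO cells, while the cytosine of the same CpG on the forward strand was at 0% in both.

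The body of Trappc9 was the longest stretch of the members and the one with the most cytosines. Over 218 cytosines in 132 groups it averaged 36.4% ± 21.4 in XX against 57.4% ± 22.8 in XO cells, a difference of -21.1 points, with 186 of 218 lower in XX cells. Cut into 4 parts of equal length from the start, it had differences of -19.5, -25.5, -18.5 and -18.3 points over 93, 67, 48 and 10 cytosines. Before and after Peg13 it differed by -22.0 points over 160 and -18.4 points over 58 cytosines, so the difference ran along the whole gene. Its 36 exonic cytosines averaged 24.8% in XX against 49.9% in XO cells and its 182 intronic ones 38.7% and 58.9%.

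Set against Trappc9, the Peg13 control region was higher than the promoter by 23.6 points in XX against 43.3 points in XO cells, and its XX minus XO difference was larger in size (control region minus promoter -19.7 points). With 2.17% in XO cells, the promoter could fall by no more than that. This comparison of differences therefore mainly restated its low level. Against the body, it was lower (-10.9 points in XX and -11.98 points in XO cells), and control region minus body for the XX minus XO difference was 1.08 points. The sign of this last value turned with the processing (-8.12 points for 0.5 kb either side of the start), so the control region and the body around it could not be ordered by their XX minus XO difference.

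**Figure D3:**
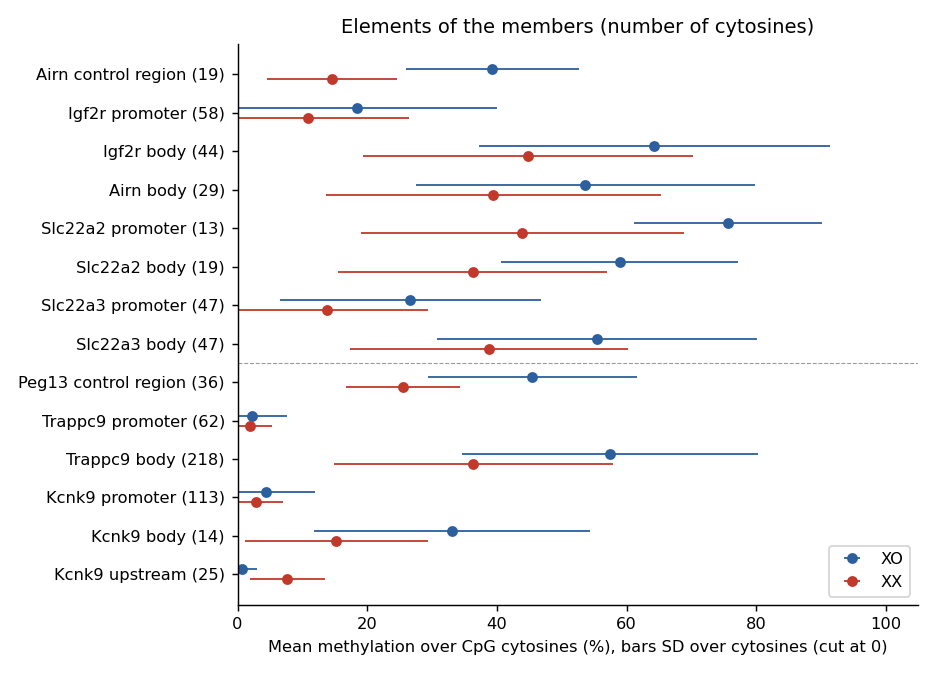
Mean methylation (x axis, percent) of each control region, promoter, body and the Kcnk9 upstream stretch in XO (blue) and XX (red) cells, with bars of 1 SD over cytosines, not drawn below 0, and the number of cytosines in brackets. The dashed line parts the Igf2r-Airn domain from the Trappc9-Peg13 domain. XX lay below XO in all elements shown except the stretch upstream of Kcnk9.

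Kcnk9 lies beyond the end of Trappc9. Its promoter (chr15:72545340-72547340) held 113 cytosines in 21 groups and averaged 2.84% ± 4.15 in XX against 4.42% ± 7.45 in XO cells, a difference of -1.57 points. Of the groups with several cytosines, the highest in XO cells held 7 reverse-strand cytosines from -735 to -590 bp and averaged 10.7% in XX against 21.4% in XO cells. The next, 4 forward-strand cytosines from -646 to -589 bp, had 6.82% and 19.7%. The body averaged 15.2% ± 14.1 in XX against 33.1% ± 21.3 in XO cells over 14 cytosines, the lowest level among the bodies of the protein-coding members. From 5 to 1 kb upstream of the start, 25 cytosines in 4 groups averaged 7.66% ± 5.81 in XX against 0.643% ± 2.34 in XO cells, the only element of the members with higher methylation in XX cells (7.01 points over cytosines). Counting each of its 4 groups once, the difference was 3.90 points, with an SD over groups of 7.84 points and a standard error of 3.92 points. The difference was thus smaller than the SD over groups. That SD is a spread along the DNA in 1 library per karyotype and not an error between cultures. The 10 kb bin at the Kcnk9 start joined the promoter and upstream cytosines, whose differences had opposite signs. Its means were therefore nearly equal, with 3.72% in XX against 3.74% in XO cells over 138 cytosines.

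**Figure D4:**
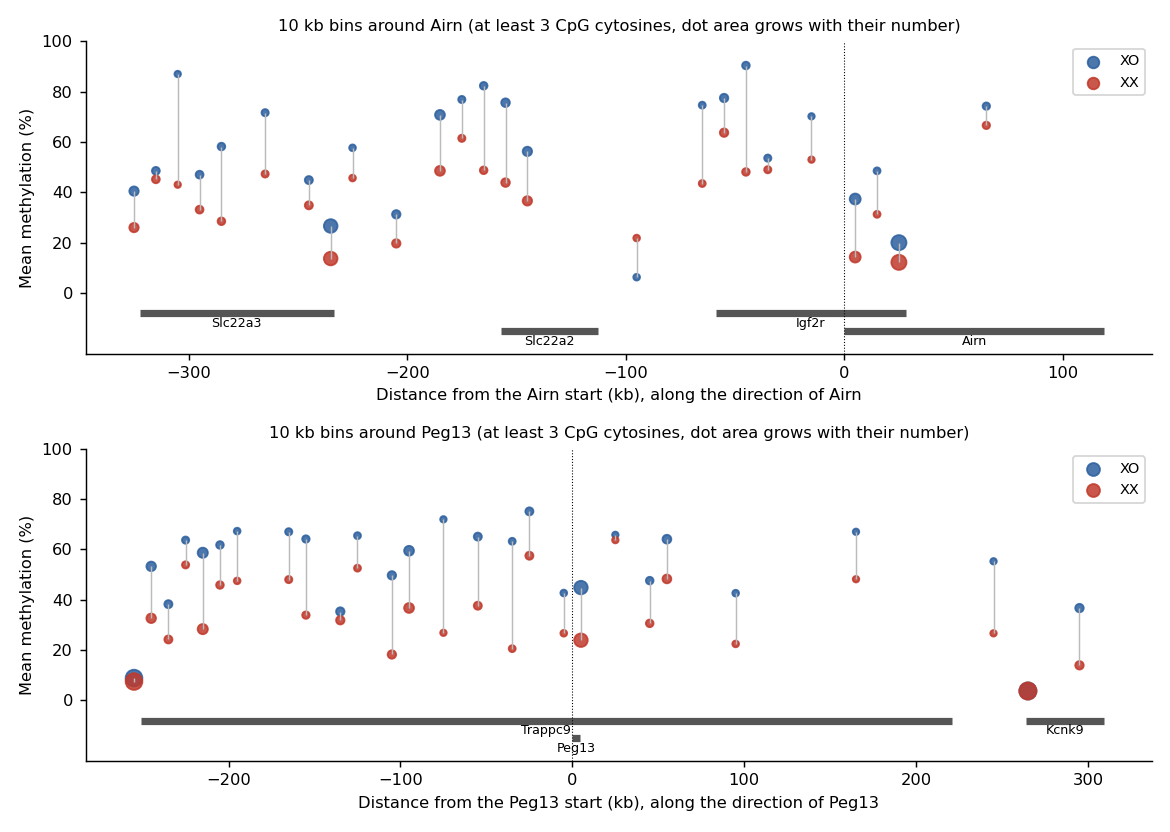
Mean methylation (y axis, percent) in 10 kb bins with at least 3 CpG cytosines against the distance in kb from the Airn start (top) and the Peg13 start (bottom), with XO in blue, XX in red, dot areas that grow with the number of cytosines and grey bars for the member genes. XX lay below XO in 24 of 25 bins around Airn and in 27 of 27 around Peg13.

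Over 10 kb bins of distance, the bin at the Airn start had a lower level than the median bin. The bin from 0 to 10 kb had 14.3% in XX against 37.4% in XO cells over 27 cytosines, against medians over 25 bins of 43.5% and 57.7%. At Peg13 the bin from 0 to 10 kb had 23.9% in XX against 44.8% in XO cells over 46 cytosines, against medians over 27 bins of 31.8% and 59.4%. The differences of these bins, -23.1 and -20.9 points, lay within the range over the bins of each domain (-44.0 to 15.5 points around Airn and -45.1 to -0.0190 points around Peg13), whose medians were -15.4 and -19.0 points. The 1 bin with higher methylation in XX cells held 4 cytosines, all outside the members.

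Read against the whole series, the members had more methylation and a larger difference, with 23.6% ± 23.3 in XX against 36.9% ± 30.9 in XO cells over the 731 cytosines, against 17.6% and 25.8% over all listed cytosines. Of the members, 500 of 731 (68.4%) were lower in XX cells by any amount, against 53.5% of all listed cytosines. At least 20 points lower were 238 of 731 (32.6%), against 22.5% in the series, and at least 20 points higher were 17 (2.33%), against 3.68%. With thresholds of 10 and 30 points the members lower in XX cells were 364 (49.8%) and 158 (21.6%), against 34.7% and 13.6%. These shares go with the members' higher XO level. Among cytosines with 60% to 100% in XO cells, members averaged 47.6% in XX against 77.9% in XO cells and all listed cytosines 47.2% against 77.1%. Among those with 20% to 60% in XO cells the values were 27.0% against 42.1% for members and 25.1% against 38.8% for all. Members and series were thus close at these XO levels. The rest, below 20% in XO cells, were 38.6% of the members and 56.5% of the series. There members averaged 4.16% in XX against 4.24% in XO cells, which is nearly equal, and all listed cytosines 5.06% against 3.98%. The classes were cut on the XO value itself. Noise in that value can by itself raise XX relative to XO in the lowest class and lower it in the highest. The sign of XX minus XO within a class was therefore not interpreted. By gene, the share at least 20 points lower was 62.5% at Slc22a2 (20 of 32), 61.1% at Peg13 (22 of 36), 42.1% at Trappc9 (134 of 318), 35.1% at Slc22a3 (33 of 94), 29.8% at Igf2r (36 of 121), 23.6% at Airn (25 of 106) and 7.24% at Kcnk9 (11 of 152). Airn shares its first part with Igf2r, and Peg13 lies in Trappc9, so these genes share cytosines.

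Among the promoters of the 5 protein-coding members, 5 of 5 were lower in XX cells and 1 of 5 (Slc22a2) by at least 20 points, with a median difference of -7.47 points. Over the 14139 protein-coding promoters of the series with at least 3 cytosines, 65.7% were lower and 4.90% lower by at least 20 points, and the median difference was -1.38 points. Of the 5 bodies, 5 were lower and 2 (Slc22a2 and Trappc9) by at least 20 points, with a median of -19.5 points, against 93.6%, 27.1% and -14.0 points over 14288 protein-coding bodies, from which control regions were not removed. For the control regions, which are about 2 kb long, the comparable share is that of autosomal 2 kb windows with at least 3 cytosines, of which 37.0% were at least 20 points lower, with a median level of 26.4% in XX against 46.0% in XO cells. Of the control regions, 1 of 2 passed that limit, Airn at -24.7 points, while Peg13 at -19.98 points was just short of it. Counting each group once turned this around, with -19.3 points at Airn and -21.1 points at Peg13. With 0.5 kb either side of the start both passed, at -34.9 and -27.9 points, so the outcome depended on the processing. Their XO levels (39.3% and 45.5%) were below that median, but with 0.5 kb either side Peg13 was above it at 52.5%.

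The rule used position alone, so base composition was a further property to compare. In the 2 kb around the start, the CpG count relative to that expected from base content was 0.538 at Airn and 0.615 at Peg13, below Igf2r (0.735) and Kcnk9 (0.727) and above Slc22a2 (0.291), and Trappc9 was at 0.449 and Slc22a3, at 0.538, level with Airn. The letters TGCCGC, the hexamer known to be bound by ZFP57 when methylated, were searched on both strands. ZFP57 is a zinc finger protein that maintains imprints in embryonic stem cells. The hexamer occurred 5 times at Airn and 6 times at Peg13, 4 times at Kcnk9, once each at Igf2r, Slc22a2 and Trappc9, and not at Slc22a3. Of 21938 protein-coding promoters of the same length, 43.0% held it at least once and 1.14% at least 5 times. At Peg13, 6 cytosines in the hexamer had values, and averaged 29.0% in XX against 47.2% in XO cells, near the level of the whole region. At Kcnk9, 4 cytosines in the hexamer had values, and averaged 0% in XX against 2.92% in XO cells. At Airn no cytosine in the hexamer was listed.

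The most similar regions elsewhere in the series are the control regions of Kcnq1ot1, a noncoding RNA within Kcnq1, and of the intronic retrogenes Nap1l5, Mcts2, Nnat and Zrsr1. Relative to the XO level, XX cells had 0.367 times at Kcnq1ot1 (7 cytosines) and 0.218 times at Nap1l5 (23), and 0.528 times at Mcts2 (33), 0.540 times at Zrsr1 (96) and 0.920 times at Nnat (45), a range that holds both Airn and Peg13. The XX minus XO difference of the control region minus that of the host promoter was -35.2 points at Kcnq1ot1, -11.3 at Zrsr1, -6.27 at Mcts2 (with only 2 promoter cytosines, at 1.45% in XO cells) and 5.35 points at Nnat. Here too a promoter with a low XO level had little room to fall. At Nap1l5 it was -33.8 points, where the control region (-18.8 points) and the promoter of Herc3 (14.9 points, higher in XX cells) differed in opposite directions. Against the host body these values were -26.6 points at Kcnq1ot1 and between -3.97 and 7.18 points at the retrogenes. With 1 library per karyotype these differences between regions have no replicate error and were not tested.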

How the data were processed

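RRBS libraries were made by the authors from genomic DNA of FACS-sorted XX and XO Xmas mESCs, 1 library each, so no test over samples was possible. The deposited table gives the percent of reads methylated at each CpG cytosine. The submitters' processing notes name bcl2fastq, Bismark and mm10, without versions or roles; a coverage minimum is not given in the sources used here. Reads overlapping a cytosine were not counted here, so depth, and with it any binomial interval, is unknown, and a value of 0% or 100% can rest on few reads.

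The 1782730 positions were compared with GRCm38.p6: 890585 were forward-strand and 892094 reverse-strand cytosines of a CpG, and 51 lay on no CpG. None was removed. Control regions were 1 kb either side of each annotated start of Airn or Peg13, promoters 1 kb either side of the gene start, and bodies the rest of the gene without control regions (for Airn, also without the Igf2r promoter). All 7 members were named. The members and lists were chosen with earlier results of these data known. Groups of cytosines between CCGG sites were defined after the data were seen. The summary code was tested on simulated data. Python 3.11.15, numpy 2.4.6, pandas 2.3.3 and matplotlib 3.10.9 were used.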

Additional observations from a re-analysis of the deposited data

How the results depend on the processing

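A difference counted as moved when a recalculation changed it by more than the standard error over groups of cytosines. Of 74 recalculated values, 54 did not move, 15 moved and 5 turned sign. XX stayed lower in 50 of 52 recalculations of single regions. Both counts include settings that changed no cytosine and so repeated the main value exactly. Examples are 2 kb either side of the start at the Peg13 control region (-19.98 points) and at the Igf2r promoter (-7.47 points). Such repeats say nothing about stability. With 0.5 kb either side of the start, the XX minus XO difference was -34.9 points at the Airn and -27.9 points at the Peg13 control region. The control region minus its host was then -27.5 points (Igf2r promoter), -16.5 (Igf2r body), -27.7 (Trappc9 promoter) and -8.12 points (Trappc9 body, a turned sign). Medians over cytosines gave -27.0 points at the Peg13 control region and -25.2 at the Trappc9 body. With medians, Peg13 minus the Trappc9 promoter was -27.0 and minus the body -1.79 points, again a turned sign. CpGs listed on both strands gave -8.31 points at the Peg13 control region (7 CpGs), -25.4 at the Igf2r body (5 CpGs) and -24.9 at the Trappc9 body (25 CpGs). The reverse strand alone gave -11.8 points at the Airn control region, and the forward strand alone 0.216 points at the Trappc9 promoter. Counting each group once, chosen after seeing the data, gave -1.93 points at the Trappc9 promoter. It turned the sign of Airn minus the Igf2r body (1.76 points) and of Peg13 minus the Trappc9 body (-0.401 points). The members at least 10 and 30 points lower were 364 and 158, against 238 at 20 points. These counts are among the 15 that moved, but they have no standard error over groups, so the rule above does not cover them. The cause of these changes was not tested, except that a lower threshold counts more cytosines by construction. No paired analysis was possible because each karyotype has 1 library. Depth is unknown, which limits every value above, and single cytosines most: at CpGs with both strands listed, the median absolute difference between strands was 18.5 points in XX and 30.9 points in XO cells at the Peg13 control region (7 CpGs), 15.5 and 19.3 points at the Slc22a3 promoter (17 CpGs) and 11.7 and 9.51 points at the Airn control region (2 CpGs). Over all members it was 3.33 and 6.25 points, and over the whole series, where the forward-strand mean of such CpGs was only 8.19% (XX) and 13.3% (XO), 3.23 and 4.17 points.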

Other observations

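Neighbours of the domains that are no members gave values on the same scale. Beyond the start of Trappc9, the promoter of Chrac1, a histone-fold subunit of chromatin remodelling complexes, averaged 16.4% ± 10.1 in XX against 13.1% ± 16.9 in XO cells over 44 cytosines, a difference of 3.27 points with a standard error over its 5 groups of 5.69 points. The promoter of Ago2, an Argonaute protein of the small RNA pathways, averaged 9.48% ± 12.98 in XX against 12.3% ± 16.4 in XO cells over 120 cytosines. No cytosine was listed at the promoters of Mas1 and Plg.

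The 17 member cytosines at least 20 points higher in XX cells fell into 11 groups, 8 of them with 1 such cytosine. The largest held 4 forward-strand cytosines of Trappc9 (chr15:72946224-72946289), which had from 40.9% to 59.1% in XX and from 12.5% to 37.5% in XO cells. In Igf2r, 3 forward-strand cytosines (chr17:12689043-12689092) had from 72% to 80% in XX and from 50% to 60% in XO cells. Both groups were singled out after their values were seen.

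The largest differences at single member cytosines were in the body of Trappc9, from 81.0% in XO to 5.26% in XX cells at position 72840872 and from 90.9% to 15.8% at position 72908879, and upstream of Slc22a3, from 89.5% to 18.2% at position 12507803, where the forward-strand cytosines 98 and 113 bp upstream of the start were at 0% in XX and at 5% and 20% in XO cells.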
